A study of Mus musculus with 12 samples.

Results

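The comparison described here sets the liver response to interleukin-6 (IL-6) in mice whose hepatocytes lack Socs3 against the liver response to interferon-gamma (IFN-γ) in mice that lack the gene of that cytokine. It rests on 8 of the 12 arrays of the series, 2 in each of 4 groups, and on the 12422 probe sets of the Affymetrix mouse array that are not control probe sets. Socs3-deleted mice carried albumin-cre(+) Socs3(-/fl), that is 1 null and 1 floxed Socs3 allele and a Cre recombinase driven by the albumin promoter, which is active in hepatocytes. They received phosphate-buffered saline (PBS) or IL-6. Ifng-null mice, Interferon-gamma-/-, received PBS or IFN-γ. All 4 groups were injected into the peritoneum and killed 4 h later. The dose, strain, sex and age were not used here. The other 4 arrays came from albumin-cre(-) Socs3(w/fl) mice after PBS or IL-6, called control mice below. They entered only the intensity floor, the choice of tested probe sets, the estimate of the spread and a few side values. Liver cells other than hepatocytes would keep the floxed allele, since Cre follows the albumin promoter. Genotype and cytokine differ together between the responses, so the share of either in any difference cannot be told apart.

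IL-6 binds its receptor together with gp130, and Janus kinases then phosphorylate mainly STAT3, which in hepatocytes drives the acute phase proteins. SOCS3 binds gp130 and the attached kinases and cuts this signal short. IFN-γ signals through its own receptor and raises guanylate-binding proteins, immunity-related GTPases, chemokines and the machinery of antigen presentation. Promoters of interferon-induced genes can carry the gamma-activated site (GAS) or the interferon-stimulated response element (ISRE), and the ISRE is bound by IRF family factors.

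Array medians ranged from 80.6 to 85.7 intensity units, and the replicates of the 6 groups correlated with Pearson's r from 0.978 to 0.987 over the log2 values of the tested probe sets. Whether a pair of replicates came from separate mice is not in the labels, and a p-value here therefore refers to the spread of these arrays, which may be technical. Intensities below 33.0, the 25th percentile of all values, were set to this floor, and the 9641 probe sets above it on at least 2 arrays were tested. A log2 change is the difference of the group means of log2 intensity, and its error is the standard error (SE) of the limma fit. A probe set is called where limma's p, adjusted over all 9641 by Benjamini-Hochberg, is under 0.05. Replicate 2 of the Socs3-deleted PBS group stood apart in exocrine pancreas genes: Prss2 read 1863 there and at most 27.3 on the other 7 arrays compared. The summed intensity of the 9 pancreas markers was 21200 on that array and 1982 to 2277 on the other 7. The 7 erythroid markers summed to 1011 to 6257 over the 8 arrays. Some acute phase genes had unequal levels in the PBS groups without a call, for example Lcn2, a siderophore-binding protein, at 1006 and 1907 in Socs3-deleted and 120.3 and 31.8 in Ifng-null livers. No probe set was called between the PBS groups by limma (smallest adjusted p = 0.176), and 451 had an unadjusted p under 0.05.

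Socs3 itself read 76.8 and 74.4 on the Socs3-deleted PBS arrays, 106 and 84.3 after IL-6, 163 and 114 on the Ifng-null PBS arrays and 133 and 130.4 after IFN-γ. All 4 Socs3-deleted arrays lay below all 4 Ifng-null arrays, and the dimmer Socs3 probe set showed the same order, with 52.6 to 68.4 against 92.8 to 125. Neither probe set was called in either response. Ifng was never above 7.81, under the floor on every array, and therefore checks no label.

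After IL-6 without Socs3, 113 of 9641 probe sets were called (1.17%), 99 higher (1.03%) and 14 lower (0.145%). After IFN-γ, 63 were called (0.653%), 59 higher (0.612%) and 4 lower (0.0415%). In the same direction in both responses, 36 were called (0.373%), which is 31.9% of the IL-6 list and 57.1% of the IFN-γ list. Of these 35 were higher and 1 was lower. An unadjusted limma p under 0.05 was found for 1044 of the 9641 after IL-6 and for 668 after IFN-γ. Such counts in the gene lists below are to be read against these. The responses share no array, but limma used the same pooled estimate of a probe set's spread for both. A probe set with a small pooled spread is therefore favoured for a call in both, and the lists are not independent.

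The difference of the responses, tested directly, was called for only 2 probe sets (0.0207%). Mx1, an interferon-induced GTPase that blocks influenza viruses, responded more to IL-6 without Socs3. Irf8, a transcription factor of the interferon regulatory family known for its role in macrophages, responded more to IFN-γ. An unadjusted p under 0.05 was found for 300 probe sets, where 482 would be expected by chance at that limit. A further 76 probe sets were called after IL-6 only and 26 after IFN-γ only, without a called difference, so they are not shown to be private to a cytokine.

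**Figure D1:**
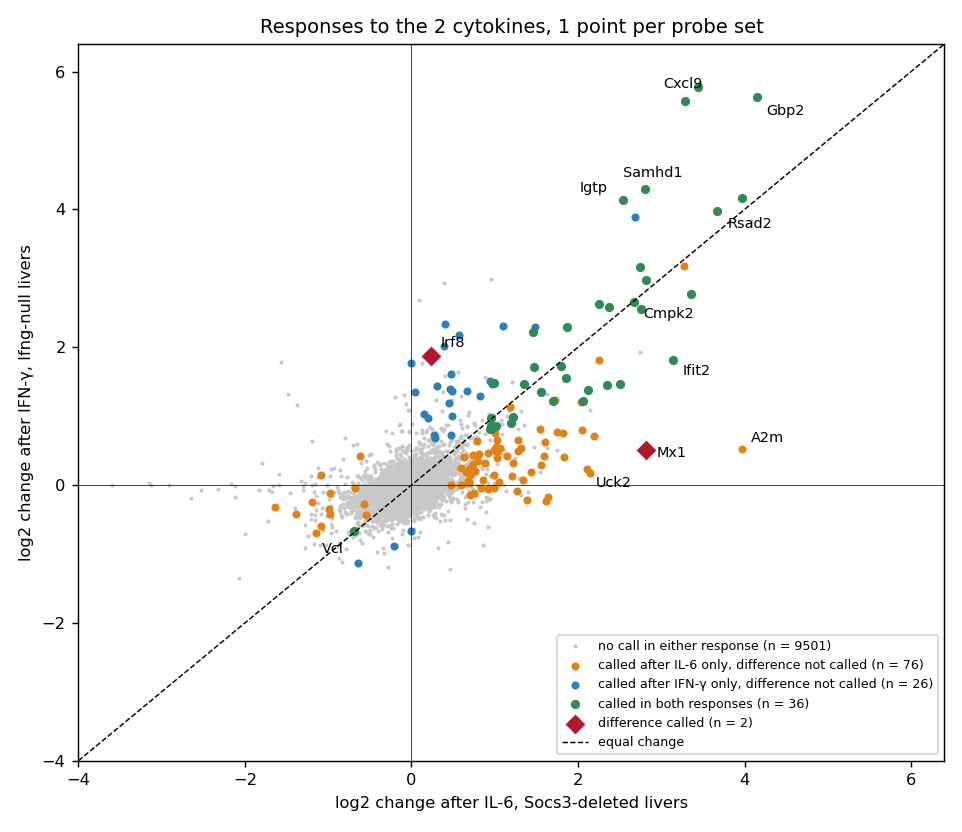
Each point is a tested probe set, with its log2 change after IL-6 in Socs3-deleted livers on the x axis and after IFN-γ in Ifng-null livers on the y axis; colours give the calls, and the dashed line marks equal change. Of the 36 probe sets called in both, 24 lie within 0.5 of equal change, while Mx1 and Irf8, the 2 called differences, lie near the axes.

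Most probe sets called higher in 1 response had a positive change in the other. Leaving out those called in both and the called differences, 52 of 63 called higher after IL-6 had a positive change after IFN-γ, with median changes of 1.03 and 0.32. Of 23 called higher after IFN-γ, 22 had a positive change after IL-6, with medians of 1.39 and 0.47. Over all tested probe sets 38.4% were positive after IFN-γ and 50.5% after IL-6, with medians of -0.03 and 0.00. Of the 13 called lower after IL-6 only, 11 were negative after IFN-γ. As a description, the responses correlated across the 9641 probe sets with Pearson's r of 0.587 and Spearman's rho of 0.439, and with r of 0.442 over the 9501 without any call. The points share their arrays, so one array of a group moves many of them together.

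The promoters of leading members are shown first, because GAS and ISRE are elements through which interferon signals are known to act. Whether they act in these responses was not tested. Each window runs from 250 bases before to 50 after the gene's start in RefSeq on GRCm38.p6 and is printed 5′ to 3′ on the gene's strand. The 3 windows below hold the ISRE in capitals, searched as GAAANNGAAA or, on the other strand, TTTCNNTTTC. Gbp2 lies at chr3:142620413-142620712 on the plus strand, Gbp3 at chr3:142559794-142560093 on the plus strand and Rsad2 at chr12:26456403-26456702 on the minus strand. In Gbp3 a pair of matches overlap.
Gbp2: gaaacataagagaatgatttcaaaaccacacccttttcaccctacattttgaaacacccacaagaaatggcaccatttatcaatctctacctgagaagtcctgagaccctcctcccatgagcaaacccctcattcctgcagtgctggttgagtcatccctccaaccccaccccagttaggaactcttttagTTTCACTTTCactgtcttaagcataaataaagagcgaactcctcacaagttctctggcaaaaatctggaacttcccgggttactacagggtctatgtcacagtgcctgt
Gbp3: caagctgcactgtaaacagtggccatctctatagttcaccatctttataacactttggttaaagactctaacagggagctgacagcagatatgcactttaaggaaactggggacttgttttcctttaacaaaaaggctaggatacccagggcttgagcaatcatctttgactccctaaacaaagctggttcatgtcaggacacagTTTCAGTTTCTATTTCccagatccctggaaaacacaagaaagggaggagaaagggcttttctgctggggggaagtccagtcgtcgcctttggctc
Rsad2: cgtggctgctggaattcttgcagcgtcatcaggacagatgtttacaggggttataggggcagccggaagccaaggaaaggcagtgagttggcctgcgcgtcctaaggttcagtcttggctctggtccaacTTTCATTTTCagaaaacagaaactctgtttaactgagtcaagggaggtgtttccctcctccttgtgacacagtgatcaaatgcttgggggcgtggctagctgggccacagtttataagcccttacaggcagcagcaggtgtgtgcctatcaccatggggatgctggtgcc

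Cxcl9 at chr5:92328030-92328329 on the minus strand was called in both responses and held neither motif in its window. Irf8 at chr8:120736108-120736407 on the plus strand held a pair of GAS matches, in capitals, searched as TTCNNNGAA, which reads the same on both strands.
Cxcl9: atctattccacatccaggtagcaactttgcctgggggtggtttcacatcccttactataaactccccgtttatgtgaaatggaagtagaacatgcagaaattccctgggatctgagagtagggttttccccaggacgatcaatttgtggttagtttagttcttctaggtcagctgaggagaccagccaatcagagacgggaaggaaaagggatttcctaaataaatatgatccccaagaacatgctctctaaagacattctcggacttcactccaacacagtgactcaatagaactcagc
Irf8: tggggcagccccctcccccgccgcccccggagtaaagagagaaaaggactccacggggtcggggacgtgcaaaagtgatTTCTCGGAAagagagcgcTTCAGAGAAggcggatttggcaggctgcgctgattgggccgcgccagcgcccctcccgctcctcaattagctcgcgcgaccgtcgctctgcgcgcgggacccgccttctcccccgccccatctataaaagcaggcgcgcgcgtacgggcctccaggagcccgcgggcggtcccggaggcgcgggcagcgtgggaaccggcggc

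Of 33 genes called higher in both responses, 29 had a window. A GAS was found in 9, an ISRE in 13 and either in 18 (62.1%). Among all 27025 RefSeq windows, 8.47% held a GAS, 3.49% an ISRE and 11.4% either. Of the 41 genes with a window called higher after IL-6 only, 4 held either motif (9.76%), a GAS in 3 and an ISRE in 1. Of the 13 called higher after IFN-γ only, 3 held either (23.1%), a GAS in 2 and an ISRE in 1. These are letter matches in a fixed window, given as a description, and the absence of a match says only that the letters are not there.

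Guanylate-binding proteins are large interferon-induced GTPases that attack the vacuoles of intracellular pathogens. Of 4 tested members, 3 rose in both responses. Gbp2 read 206 and 53.1 after PBS and 1454 and 2381 after IL-6 in Socs3-deleted livers, and 49.6 and 49.1 after PBS and 2591 and 2298 after IFN-γ in Ifng-null livers. Each treated array lay far above both PBS arrays of its genotype, and replicate 1 of the Socs3-deleted PBS group was the higher of its pair. Gbp2 rose 17.8-fold after IL-6 (log2 4.15 ± 0.57 SE, limma adjusted p = 0.00917) and 49.5-fold after IFN-γ (log2 5.63 ± 0.57 SE, limma adjusted p = 0.00227). The rise after IL-6 was 35.0-fold without Socs3-deleted PBS replicate 1 and 9.03-fold without replicate 2.

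Gbp3 gave the most even pair of changes among these 3. It read 125 and 90.4, then 738 and 757 after IL-6, and 82.6 and 98.9, then 678 and 742 after IFN-γ. The treated arrays of the 2 genotypes overlapped in level, and the log2 changes were 2.81 ± 0.19 (limma adjusted p = 0.000176) and 2.97 ± 0.19 (limma adjusted p = 0.000142). Gbp7 rose by 2.74 and 3.17 on the log2 scale. The fourth member, Gbp2b, was called in neither, at 0.16 and 0.26. The family's median change was 2.78 after IL-6 and 3.07 after IFN-γ, against 0.00 and -0.03 over all tested probe sets.

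Immunity-related GTPases act in the same defence of infected cells. Of 5 tested, 4 rose after IL-6 and 5 after IFN-γ, with medians of 2.37 and 2.58. Igtp read 179 and 116 after PBS and 752 and 941 after IL-6, against 116 and 138 and 2295 and 2177 in the Ifng-null groups. Its arrays after IFN-γ were all above those after IL-6, from similar PBS levels. The log2 changes were 2.54 ± 0.42 and 4.14 ± 0.42 (limma adjusted p = 0.0246 and 0.00229), and their difference, -1.60 with a 95% interval of -2.94 to -0.26, was not called (limma adjusted p = 1).

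Irgm1 and Irgm2, regulators of the other family members, rose in both. Irgm1 read 105 and 111 and then 476 and 649.7 after IL-6, and 74.6 and 106 and then 412 and 685 after IFN-γ, with log2 changes of 2.37 and 2.58. Irgm2 rose by 1.86 and 2.30. Iigp1, an effector GTPase of the family, was called on both of its probe sets in both responses. Its brighter probe set gave 1.35 and 1.46, and the other, whose name marks it as matching a family of sequences, gave 1.79 and 1.73.

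Ifi47 was the member called after IFN-γ only. It read 335 and 298 after PBS and 1864 and 2207 after IL-6 in Socs3-deleted livers, and 113 and 161 and 2113 and 1877 in the Ifng-null groups. The treated arrays overlapped in level, while the PBS level was higher in the Socs3-deleted livers. The IL-6 change of 2.68 ± 0.53 missed the threshold narrowly (limma adjusted p = 0.052), and the IFN-γ change was 3.89 ± 0.53 (limma adjusted p = 0.0134).

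**Figure D2:**
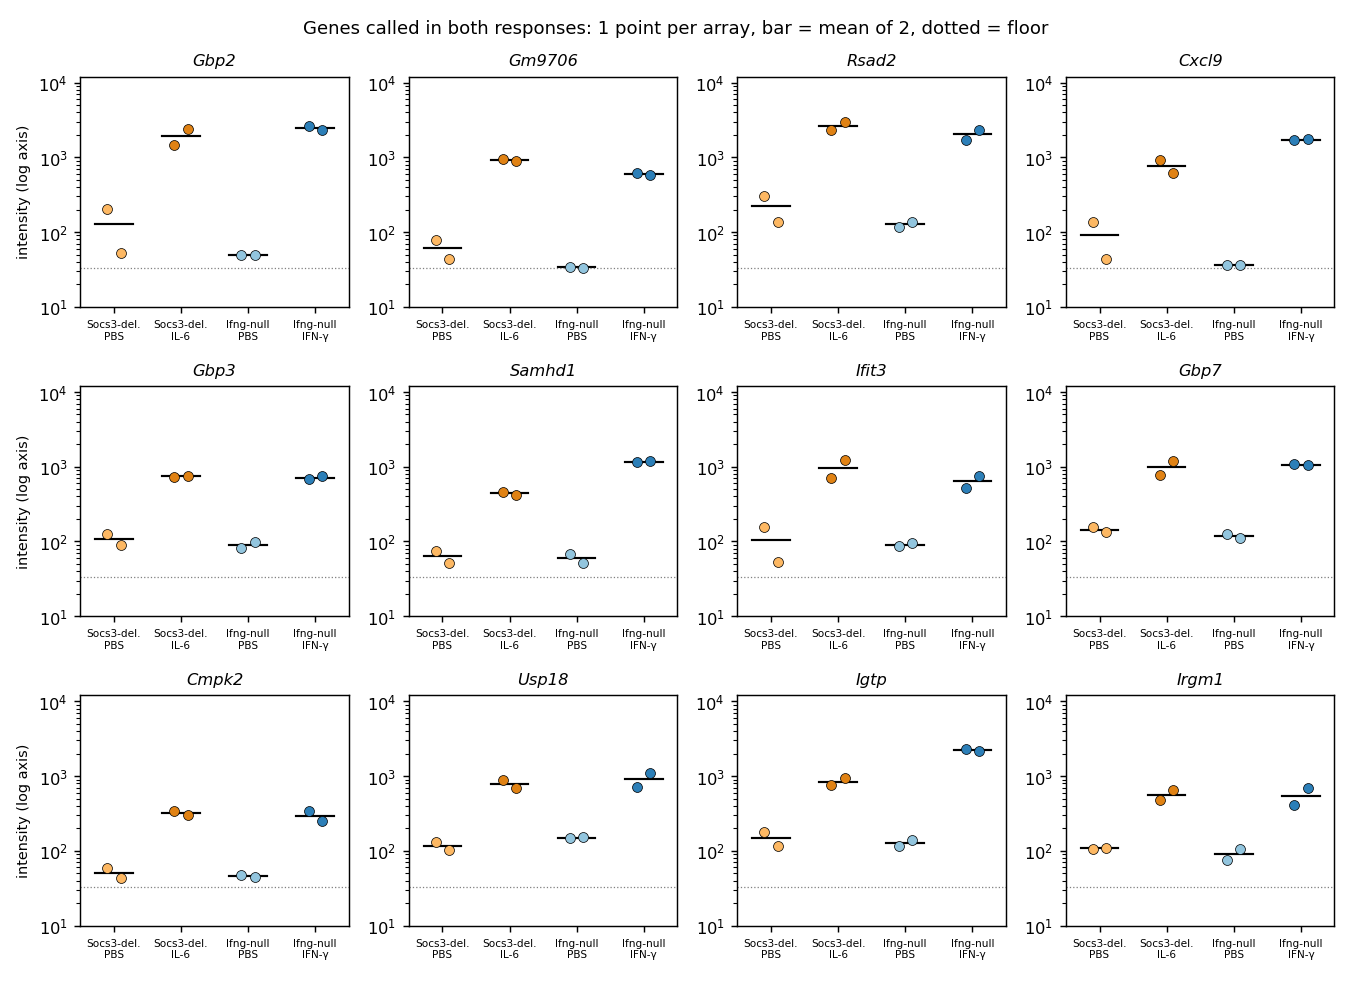
Intensity on a log axis for the first 12 genes called in both responses, ranked by the smaller of their changes; each point is an array, the bar is the mean of 2 arrays, and the dotted line is the floor at 33.0. Every treated array lies above both PBS arrays of its genotype in all 12 panels, which the choice of genes called higher in both makes nearly certain. Cxcl9, Samhd1 and Igtp stand higher after IFN-γ than after IL-6.

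Antiviral effectors formed the largest interferon list. Of 18 tested, 8 rose after IL-6 and 8 after IFN-γ, 7 of them in both, with medians of 1.84 and 1.12. Rsad2, or viperin, which makes a chain-terminating nucleotide, read 308 and 137 after PBS and 2323 and 2933 after IL-6, and 118 and 137 and 1696 and 2351 in the Ifng-null groups. The treated arrays overlapped between the responses. Its log2 changes were 3.67 ± 0.34 (limma adjusted p = 0.0012) and 3.97 ± 0.34 (limma adjusted p = 0.000746). Cmpk2, its genomic neighbour and a nucleotide kinase, differed least of the 36 probe sets called in both, with log2 changes of 2.67 and 2.66 and a difference of 0.01 (95% interval -0.54 to 0.57).

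Samhd1, which hydrolyses deoxynucleotides and restricts retroviruses, read 75.4 and 52.3 after PBS and 465 and 413 after IL-6, and 68.3 and 51.8 and 1148 and 1185 in the Ifng-null groups. From PBS levels that overlapped, both arrays after IFN-γ rose above both arrays after IL-6. Its fold was 6.98 after IL-6 and 19.6 after IFN-γ, and the difference of -1.49 (-2.29 to -0.70) was not called (limma adjusted p = 0.571).

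The IFIT proteins bind foreign RNA and block its translation. Ifit2 leaned the other way: it read 51.3 and 28.3 and then 403 and 328 after IL-6, but 30.1 and 35.1 and then 109 and 129.9 after IFN-γ. The IL-6 arrays lay above the IFN-γ arrays, from low PBS levels in both genotypes, with 1 PBS array of each under the floor. With the floor at the 50th percentile the change after IFN-γ was 0.51 and not called (limma adjusted p = 0.147). The log2 changes were 3.14 ± 0.19 (limma adjusted p = 0.000155) and 1.81 ± 0.19 (limma adjusted p = 0.00278), and the difference of 1.33 (0.72 to 1.94) had a limma adjusted p of 0.436. Ifit3 rose by 3.36 ± 0.50 and 2.78 ± 0.50 (limma adjusted p = 0.0143 and 0.0496). Its rise after IL-6 was 17.6-fold without Socs3-deleted PBS replicate 1, against 10.3-fold with it, and 5.97-fold and not called without replicate 2 (limma adjusted p = 0.074). Ifit1, singled out after its values were seen, had changes as large, 4.08 and 3.84, but a spread that kept it from a call (limma adjusted p = 0.0545 and 0.12).

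Trim30a, a ubiquitin ligase induced by interferons, and Ifih1, the RNA sensor MDA5, also gave the larger change after IL-6. Trim30a read 55.5 and 47.9 and then 280.3 and 305 after IL-6, and 41.9 and 45.8 and then 98.9 and 149.8 after IFN-γ. All 4 treated arrays were above the PBS arrays, with the IL-6 arrays highest. With the floor at the 50th percentile the change of Trim30a after IFN-γ was 0.54 and not called (limma adjusted p = 0.3435). Its difference was 1.03 (0.21 to 1.85) and that of Ifih1 0.84 (0.17 to 1.52), neither called (limma adjusted p = 1 for each). Ifi204, a member of the DNA-sensing p200 family, was called after IFN-γ only, at 1.39 against 0.46.

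ISG15 is a ubiquitin-like protein, and USP18 removes it from its targets. The list of this pathway also holds the exonuclease Isg20. Of its 5 tested genes, 4 rose after IL-6, Isg20 among them, and 2 after IFN-γ, with medians of 1.54, which is the value of Isg20, and 0.86. Isg15 read 539 and 332 after PBS and 3875 and 4324 after IL-6, and 268 and 344 and 2406 and 3122 in the Ifng-null groups. Its changes of 3.27 ± 0.61 and 3.17 ± 0.61 were close in size, yet only the first was called (limma adjusted p = 0.0378 and 0.0678), and the interval of the difference reached from -1.84 to 2.04.

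Usp18 read 132 and 102 and then 879 and 704 after IL-6, and 149 and 153 and then 706 and 1103 after IFN-γ, with log2 changes of 2.76 ± 0.21 and 2.55 ± 0.21 (limma adjusted p = 0.000552 and 0.000746). Uba7, the enzyme that activates ISG15, rose by 0.95 and 0.86, a difference of 0.10 (-0.28 to 0.48). Isg20 was called after IL-6 only, at 1.54 against 0.81. A probe set of Gm9706, of the kind that matches a family of sequences, rose by 3.97 ± 0.70 and 4.16 ± 0.70 (limma adjusted p = 0.0295 and 0.0311).

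Immunoproteasome subunits, which replace constitutive ones and cut peptides suited to MHC class I, rose for 3 of 4 tested members in both responses. Psmb9 read 197 and 215 after PBS and 544 and 589 after IL-6, and 186 and 202 and 831 and 987 in the Ifng-null groups. The IFN-γ arrays were the highest, and the difference of -0.77 (-1.54 to 0.01) was not called. Psmb8 rose by 1.47 and 1.71, and Psmb10 by 0.99 and 1.48. The list median was 1.23 after IL-6 and 1.59 after IFN-γ. Among 14 constitutive proteasome subunits limma called none in either response, 2 had an unadjusted p under 0.05 in each, and the medians were -0.11 and 0.07.

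Tap1, a subunit of the peptide transporter that loads MHC class I, was the only 1 of 8 tested class I genes called in either response. It read 159 and 154 and then 789 and 701 after IL-6, and 143 and 151 and then 985 and 841 after IFN-γ. The IFN-γ arrays were the highest, and the log2 changes were 2.25 ± 0.24 and 2.63 ± 0.24 (limma adjusted p = 0.00321 and 0.00149). The class I heavy chain gene H2-K1 was at 0.17 and -0.06, and B2m, its light chain, at 0.09 and -0.13. Of 11 class II genes limma called none, with 0 and 1 at an unadjusted p under 0.05 and medians of 0.09 and 0.12.

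Of 16 tested chemokines, 1 was called higher after IL-6 and 3 after IFN-γ. Over all tested probe sets, 1.03% and 0.612% were called higher. Cxcl9, which attracts T cells through CXCR3, read 138 and 43.8 after PBS and 934 and 612 after IL-6, and 36.6 and 36.1 and 1687 and 1771 in the Ifng-null groups. The IFN-γ arrays exceeded the IL-6 arrays, although the Socs3-deleted PBS arrays were the higher of the PBS groups. Its rise was 9.74-fold after IL-6 (limma adjusted p = 0.0225) and 47.6-fold after IFN-γ (limma adjusted p = 0.00173). The rise after IL-6 was 17.3-fold without Socs3-deleted PBS replicate 1, and 5.49-fold and not called without replicate 2 (limma adjusted p = 0.0995). The difference of -2.29 (-3.99 to -0.59) was not called (limma adjusted p = 1).

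The other genes called higher in both responses were Plscr1, Znfx1, Xdh, Rnf19b, Crybg1, Myd88, Ogfr, Pml, Daxx, Lgals3bp and Lilr4b, together with 1 probe set that matches several symbols and stays unnamed. Xdh, xanthine dehydrogenase of purine breakdown, read 422 and 367 and then 1255 and 1632 after IL-6, and 287 and 277 and then 830.1 and 822 after IFN-γ. Its changes were 1.86 and 1.55. Myd88, the adaptor of Toll-like receptors, rose by 1.21 and 0.98, and Pml, which forms nuclear bodies, by 1.01 and 0.86. Daxx, a chaperone of those bodies that also binds FAS, rose by 0.95 and 0.82 and was the only called member of 8 caspase and death receptor genes. Lilr4b, an inhibitory leukocyte receptor, rose by 0.95 and, from PBS arrays under the floor, by at least 0.98 at intensities of at most 77.2.

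Vcl, which encodes the adhesion protein vinculin, was the 1 gene called lower in both. It read 164 and 174 after PBS and 106 and 103 after IL-6, and 179 and 204 and 120.5 and 120.5 in the Ifng-null groups. No treated array reached a PBS array. Vcl was 1.61-fold lower after IL-6 (log2 -0.69 ± 0.10 SE, limma adjusted p = 0.0144) and 1.59-fold lower after IFN-γ (log2 -0.67 ± 0.10 SE, limma adjusted p = 0.025).

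Over the 36 probe sets called in both, the difference of the responses was positive for 18 and negative for 18, with a median of 0.00 on the log2 scale and a range of -2.34 to 1.33. It was under 0.5 in size for 24. None was called as different, and this does not show that the cytokines act alike: the 95% interval of the difference had a median width of 1.42 and lay within 1 log2 unit of 0, or 2-fold, for 14 of the 36. The interval held 0 for 27. Treated and PBS arrays did not overlap in either response for any of the 36. With 2 arrays per group, a call in both makes this nearly certain, so it adds nothing to the calls. The 36 are 0.373% of all tested probe sets, and the share of all tested probe sets without overlap was not counted. In control mice the same 36 probe sets had a median change of 0.59 after IL-6, positive for 34, against 2.09 after IL-6 without Socs3 and 1.72 after IFN-γ. The 36 were chosen by their calls in the last 2 responses and not in control mice. That choice favours large values of 2.09 and 1.72 but not of 0.59, so the gap does not measure an effect of Socs3.

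**Figure D3:**
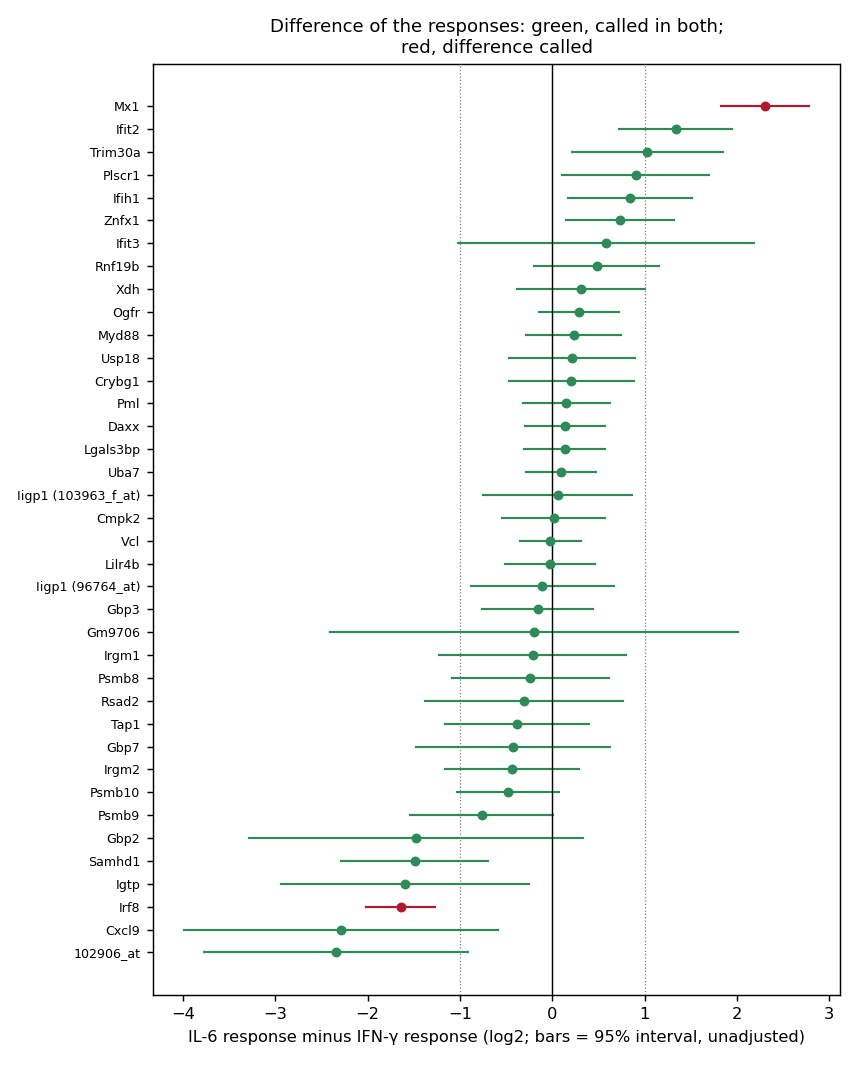
Points give the IL-6 response minus the IFN-γ response on the log2 scale with unadjusted 95% intervals, for the 36 probe sets called in both responses (green) and for Mx1 and Irf8 (red); dotted lines mark 1 log2 unit. The green points spread on both sides of 0, from Ifit2 at 1.33 to an unnamed probe set at -2.34.

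Which of these calls stand depends on single arrays, since a group left with 1 array is assumed to vary like the others. The count called in both fell from 36 to 21 without Socs3-deleted PBS replicate 1, to 15 without its replicate 2 and to 15 without Socs3-deleted IL-6 replicate 2. It was 15 and 16 without Ifng-null PBS replicates 1 and 2, and 16 without Ifng-null IFN-γ replicate 2. The IL-6 count of 113 was 58 and 36 without either Socs3-deleted PBS array and 37 without IL-6 replicate 2, and the IFN-γ count of 63 was 21 and 20 without either Ifng-null PBS array and 21 without IFN-γ replicate 2. Without the 2 arrays with the highest Prss2, Socs3-deleted and control PBS replicate 2, the counts were 20 after IL-6, 33 after IFN-γ and 10 in both. The count of called differences was 0 without those arrays, 0 without Ifng-null PBS replicate 2 and 17 without Socs3-deleted IL-6 replicate 1.

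Mx1 was the gene whose response was called larger after IL-6 without Socs3. It read 22.2 and 15.9 after PBS and 205 and 265 after IL-6 in Socs3-deleted livers, and 14.8 and 16.6 after PBS and 41.1 and 54.2 after IFN-γ in Ifng-null livers. All PBS arrays lay below the floor, both IFN-γ arrays lay a little above it, and the IL-6 arrays were several times higher. In control mice Mx1 stayed below the floor, at 15.3 and 15.7 after PBS and 14.2 and 16.9 after IL-6. It rose at least 7.05-fold after IL-6 (log2 2.82 ± 0.15 SE, limma adjusted p = 9.23e-05), and after IFN-γ the change from the floor, itself a lower bound, was 0.52 and not called (limma adjusted p = 0.341). With all PBS arrays set to the floor, the difference of the responses is the difference between the treated levels, 2.30 ± 0.21 (limma adjusted p = 0.0128), and unequal PBS levels under the floor are not in it. A lower floor, at the 10th percentile, gave 2.04 and no call (limma adjusted p = 0.0809), while a floor at the 50th percentile gave 1.47 and no floor 1.83, both called. Mx1 lost its called difference without Socs3-deleted PBS replicate 2 and without Ifng-null PBS replicate 2, where no probe set was called. Since both IFN-γ arrays exceeded every PBS array, the data do not show Mx1 as silent after IFN-γ. Mx1 passed the filter only through the arrays treated in these 2 responses, and groups at the floor show no spread. Its SEs may therefore be too small, and its adjusted p-values depend on the floor and the filter. Without the filter the difference for Mx1 was not called. Its relative Mx2 had changes of 1.62 and 0.54 and was called in neither response (limma adjusted p = 0.0694 and 0.942).

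Among the 76 probe sets called after IL-6 only with no called difference, the interval of the difference held 0 for 19. Uck2, a uridine-cytidine kinase, came nearest to a called difference. It read 61.8 and 57.6 after PBS and 226 and 291 after IL-6, against 43.7 and 50.2 and 48.7 and 62.3 in the Ifng-null groups. The IL-6 arrays stood apart from the other 6, while the Ifng-null groups overlapped. Uck2 rose 4.30-fold after IL-6 (log2 2.10 ± 0.17 SE, limma adjusted p = 0.000554), and the difference of 1.87 ± 0.24 had a limma adjusted p of 0.058.

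A2m, alpha-2-macroglobulin, a protease inhibitor of the acute phase, was the only 1 of 26 acute phase genes called in either response. It read 86.8 and 96.8 after PBS and 1452 and 1421 after IL-6 in Socs3-deleted livers, and 22.1 and 23.2 and 30.6 and 68.2 in the Ifng-null groups. The IL-6 arrays were far above the rest, and the Socs3-deleted PBS arrays were above all Ifng-null arrays. A2m rose 15.7-fold after IL-6 with a wide error (log2 3.97 ± 0.78 SE, limma adjusted p = 0.0496), and its difference was not called (limma adjusted p = 1). Both Ifng-null PBS arrays and an IFN-γ array were under the floor, so that difference has no exact size: it was 3.45 here, 2.96 with the floor at the 10th percentile and 3.97 at the 50th. One control array after IL-6 read 302 and the other 31.6, a spread within a group that enters the SE.

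The acute phase list as a whole had medians of 0.08 after IL-6 and 0.16 after IFN-γ, with 2 and 5 of 26 at an unadjusted p under 0.05. Its PBS level was higher in Socs3-deleted than in Ifng-null livers by a median of 0.63 on the log2 scale. Saa3, serum amyloid A3, read 969 and 544 after PBS and 4809.5 and 4948 after IL-6, and 202 and 147 and 409 and 1051 in the Ifng-null groups, and Lcn2 read 3157 and 2288 after IL-6 and 359 and 692 after IFN-γ. Neither was called in either response. The starting levels differed, and their part in the size of the IL-6 changes was not tested. Mt1, a metallothionein that binds zinc, read 9266 and 9157 and 9513 and 10082 in the Socs3-deleted groups but 3654 and 358 and 6397 and 8525 in the Ifng-null groups, again with no call. Of 6 metallothionein and iron genes limma called none, with 0 and 2 at an unadjusted p under 0.05.

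Il17ra, the receptor of interleukin-17, was called after IL-6 on both of its probe sets. The one with the larger change read 238 and 164 after PBS and 751 and 1079 after IL-6, and 142 and 134 and 194 and 264 in the Ifng-null groups. Both IL-6 arrays were above all others. The log2 changes were 2.19 ± 0.37 and 0.71 ± 0.37 (limma adjusted p = 0.0246 and 0.803), and the other probe set gave 1.59 and 0.43. Sowahc, an ankyrin repeat gene, read 42.4 and 42.1 and then 126 and 274 after IL-6, and 34.6 and 36.2 and then 34.4 and 46.1 after IFN-γ. Its arrays after IL-6 stood above the rest but differed from each other, and its change was 2.14 ± 0.29 (limma adjusted p = 0.00917). With the floor at the 50th percentile this change was 1.15 and not called (limma adjusted p = 0.109).

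Nampt, the rate-limiting enzyme of NAD salvage, belongs to the genes called after IL-6 whose change after IFN-γ was of similar size. It read 129 and 77.0 and then 533 and 424 after IL-6, and 89.4 and 126 and then 322 and 434 after IFN-γ. The treated arrays of both cytokines overlapped and lay above all PBS arrays. Its changes were 2.25 ± 0.42 and 1.82 ± 0.42 (limma adjusted p = 0.0377 and 0.158). Irf7, the factor that amplifies interferon production, gave 1.72 and 1.23 and likewise only the first was called (limma adjusted p = 0.0144 and 0.107).

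Among signalling genes, Jak2, a kinase of both receptors, rose after IL-6 as the only 1 of 9 JAK and STAT genes called in either response. It read 45.8 and 48.3 and then 78.6 and 80.6 after IL-6, and 48.6 and 49.9 and then 55.6 and 57.8 after IFN-γ, with the IL-6 arrays highest and changes of 0.76 and 0.20. Ptpn2, a phosphatase that acts on Janus kinases, was the only 1 of 10 feedback genes called, at 1.02 after IL-6 and 0.55 after IFN-γ. With the floor at the 50th percentile its change after IL-6 was 0.23 and not called (limma adjusted p = 0.322). Socs1, an inhibitor of IFN-γ signalling, read 153 and 157 and 219 and 2149.6 in the Socs3-deleted groups and 146 and 167 and 265 and 419 in the Ifng-null groups. A single IL-6 array was far above the other, so its changes of 2.15 and 1.09 were not called. Of 9 receptor subunit genes limma called none, with 1 and 3 at an unadjusted p under 0.05.

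Of 27 STAT3-linked and immediate-early genes all had a positive change after IL-6 and 21 after IFN-γ, with medians of 0.46 and 0.26. Only Bcl3, a nuclear partner of NF-κB, passed the test. It read 746 and 601 and then 1890.5 and 1409 after IL-6, and 659.7 and 545 and then 854 and 1038 after IFN-γ. The IL-6 arrays were the highest, with changes of 1.29 ± 0.20 and 0.65 ± 0.20 (limma adjusted p = 0.016 and 0.367). An unadjusted p under 0.05 was found for 13 members after IL-6 and 6 after IFN-γ.

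Cd14, the lipopolysaccharide co-receptor, is a marker of macrophages that hepatocytes also make. It read 326 and 311 after PBS and 775 and 842 after IL-6, and 267 and 229 and 254 and 267 in the Ifng-null groups. Both IL-6 arrays were above all others, and the Ifng-null groups overlapped. Its changes were 1.34 ± 0.13 and 0.08 ± 0.13 (limma adjusted p = 0.00121 and 1), and the difference of 1.27 had a limma adjusted p of 0.0876. The 16 macrophage and Kupffer cell markers summed to 4185 and 4910 after PBS and 6191 and 5004 after IL-6 in Socs3-deleted livers, and to 3576 and 4648, then 3347 and 5052, in the Ifng-null groups. Their part in these results was not tested. In whole liver, more cells of a type and more RNA per cell cannot be told apart.

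**Figure D4:**
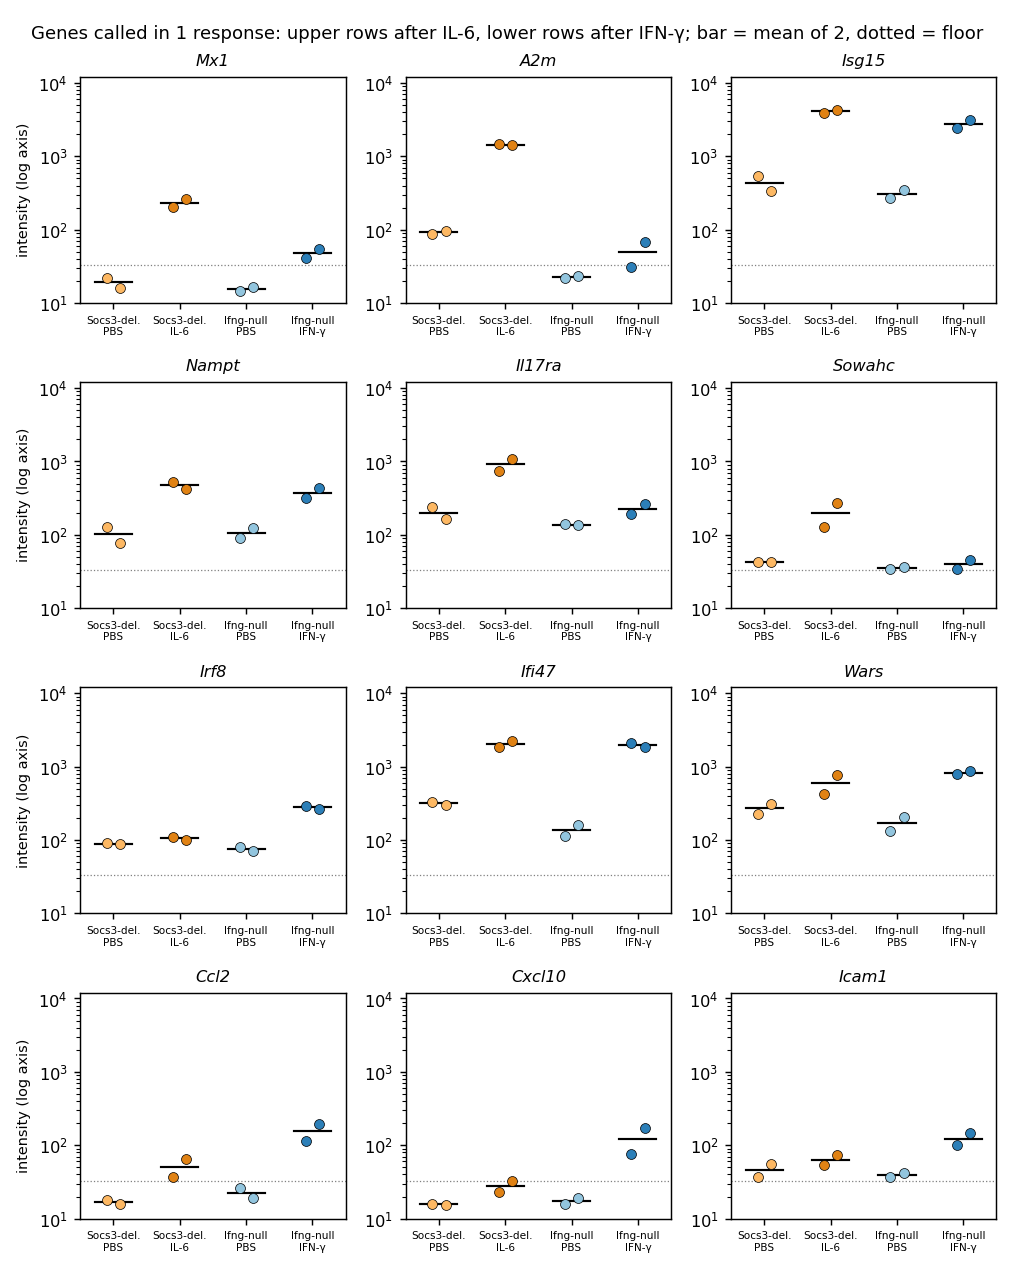
Intensity on a log axis for genes called in 1 response, 1 point per array, with the mean of 2 arrays as a bar and the floor at 33.0 dotted; the upper 6 panels are genes called after IL-6 and the lower 6 genes called after IFN-γ. Irf8 stands high after IFN-γ, Mx1 stands highest after IL-6 with both IFN-γ arrays also above all PBS arrays, and Isg15, Nampt and Ifi47 stand high after both cytokines.

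Of the 14 probe sets called lower after IL-6, 13 were not called after IFN-γ. Slc25a15, the ornithine carrier of the urea cycle, read 2051 and 1961 after PBS and 970.5 and 1049 after IL-6, and 1395 and 1459 and 1121 and 1115 in the Ifng-null groups. Treated arrays were below PBS arrays in both genotypes, from a higher start in Socs3-deleted livers. It was 1.99-fold lower after IL-6 (log2 -0.99 ± 0.09 SE, limma adjusted p = 0.00121) and 1.28-fold lower, not called, after IFN-γ (limma adjusted p = 0.252). Hpd, of tyrosine breakdown, fell by 0.57 after IL-6 and was at -0.27 after IFN-γ. All 14 tested genes of the urea cycle and amino acid catabolism were negative in both responses, with medians of -0.58 and -0.28, and these 2 were the only ones called. An unadjusted p under 0.05 was found for 9 and 4.

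Gpam, which starts triglyceride synthesis, read 755 and 539.5 and then 329 and 253 after IL-6, and 789 and 731 and then 512 and 428 after IFN-γ. Treated arrays were lower in both genotypes, and the changes were -1.15 ± 0.19 and -0.70 ± 0.19 (limma adjusted p = 0.0246 and 0.285). It was the only 1 of 17 cholesterol and fatty acid synthesis genes called, and 1 of the 17 was positive after IFN-γ, against 38.4% of all tested probe sets. The list's medians were -0.09 after IL-6 and -0.44 after IFN-γ. Rora, a nuclear receptor of clock and lipid control, read 94.3 and 108 and then 44.4 and 43.6 after IL-6, and 93.8 and 133 and then 89.9 and 100.1 after IFN-γ. Its IL-6 arrays were below all others, and only the change of -1.20 ± 0.17 after IL-6 was called (limma adjusted p = 0.0113). With the floor at the 50th percentile that change was -0.27 and not called (limma adjusted p = 0.635).

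Cpeb2, which binds messenger RNA tails, was the largest called decrease with a symbol, at -1.63 after IL-6 and -0.32 after IFN-γ, with an IL-6 array under the floor. A floor at the 50th percentile left -0.35 and no call after IL-6 (limma adjusted p = 0.271). Mcm10, a DNA replication factor, was at -1.39 and -0.42, and Ankrd46 at -1.09 and -0.59. At the floor of the 50th percentile their changes after IL-6 were -1.03 and -0.20, neither called (limma adjusted p = 0.141 and 0.702). Klf9, a transcription factor of hormone responses, singled out after its values were seen, had opposite signs in the responses. It read 403 and 479 after PBS and 278 and 294 after IL-6, but 356 and 364 and 464 and 499 in the Ifng-null groups. The IL-6 arrays were lower and the IFN-γ arrays higher than their PBS arrays, and the difference of -1.04 (-1.41 to -0.66) was not called (limma adjusted p = 0.153).

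Irf8 was the gene whose response was called larger after IFN-γ. It read 90.5 and 88.3 after PBS and 110.3 and 100.4 after IL-6 in Socs3-deleted livers, and 80.5 and 71.0 after PBS and 288 and 268 after IFN-γ in Ifng-null livers. The IFN-γ arrays were far above the other 6, which lay close together. Irf8 rose 3.67-fold after IFN-γ (log2 1.88 ± 0.12 SE, limma adjusted p = 0.000142), and the change of 0.24 ± 0.12 after IL-6 was not called (limma adjusted p = 0.562). The difference was -1.64 ± 0.17 (95% interval -2.02 to -1.27, limma adjusted p = 0.0148). The called difference was lost without either Socs3-deleted PBS array, without IL-6 replicate 2, without Ifng-null PBS replicate 2 and without either IFN-γ array. In control mice it read 81.0 and 87.3 after PBS and 85.0 and 101 after IL-6. Irf1, a transcription factor of the interferon response, read 201 and 241 and then 209 and 404 after IL-6, and 200.1 and 237 and then 536 and 801 after IFN-γ. Its IFN-γ arrays were the highest, but neither change, 0.40 nor 1.59, was called (limma adjusted p = 0.779 and 0.0595).

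Among the 26 probe sets called after IFN-γ only with no called difference, the interval of the difference held 0 for 8. An unnamed probe set came nearest to a called difference, at -1.93 (limma adjusted p = 0.058).

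Ccl2, which attracts monocytes, read 17.8 and 15.6 after PBS and 37.1 and 64.4 after IL-6, and 26.2 and 19.1 and 115 and 193 in the Ifng-null groups. All PBS arrays were below the floor, both IL-6 arrays just above it and both IFN-γ arrays clearly above it. It rose at least 4.51-fold after IFN-γ (log2 2.17 ± 0.27 SE, limma adjusted p = 0.00722), though with the floor at the 50th percentile this change was 0.83 and not called (limma adjusted p = 0.156). The difference of the responses depends on the floor, at -1.61 here, -1.19 at the 10th percentile and -0.83 at the 50th, and was called at none of these. Cxcl10, another CXCR3 ligand, read 15.8 and 15.5 and then 22.7 and 32.1 after IL-6, and 15.8 and 19.1 and then 75.7 and 169 after IFN-γ. Only the IFN-γ arrays exceeded the floor, so it rose at least 3.43-fold after IFN-γ (limma adjusted p = 0.0252) and has no measured fold after IL-6. Cxcl10 passed the filter through those same arrays, and groups at the floor show no spread. Its SE may therefore be too small, and its adjusted p depends on the floor and the filter. Without the filter the change was not called (limma adjusted p = 0.202).

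Icam1, an adhesion molecule for leukocytes, read 37.0 and 55.2 and then 52.9 and 74.0 after IL-6, and 37.4 and 41.8 and then 100.5 and 145 after IFN-γ. The IFN-γ arrays were the highest, and the changes were 0.47 ± 0.23 and 1.61 ± 0.23 (limma adjusted p = 0.555 and 0.0172). With the floor at the 50th percentile the change after IFN-γ was 0.53 and not called (limma adjusted p = 0.277). Fcgr1, the high-affinity IgG receptor of macrophages, read 98.0 and 88.3 and then 110.1 and 103 after IL-6, and 79.0 and 74.4 and then 136 and 166 after IFN-γ. Again both IFN-γ arrays were above the rest, with changes of 0.20 and 0.97. It and Cd14 were the only called members of the macrophage list, each in 1 response.

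Wars, tryptophanyl-tRNA synthetase, was called after IFN-γ on 2 of its 3 probe sets. The one with the larger change read 228 and 313 and then 419 and 777 after IL-6, and 134 and 207 and then 787 and 861 after IFN-γ. Its changes were 1.10 ± 0.35 and 2.30 ± 0.35 (limma adjusted p = 0.239 and 0.0209), the other called probe set gave 0.49 and 1.37, and the third 0.37 and 0.40. Plac8, a small cysteine-rich protein of leukocytes, gave 0.95 and 1.52, with a difference of -0.57 (-1.33 to 0.19).

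Only 3 probe sets were called lower after IFN-γ and not after IL-6. Paqr7, a membrane progestin receptor, read 209.7 and 211 and 215 and 202 in the Socs3-deleted groups, and 321 and 362 after PBS and 219 and 209.6 after IFN-γ in Ifng-null livers. The Ifng-null PBS arrays were high and the IFN-γ arrays lay at the level of the Socs3-deleted livers. Tbcel, a tubulin chaperone-like gene, gave -0.88 after IFN-γ and -0.21 after IL-6 from PBS levels of 312 and 377 in Ifng-null and 214 and 171 in Socs3-deleted livers. Fam107b gave -1.12 and -0.64, with PBS levels of 388 and 326 and 268 and 249.9. For all 3, the PBS level was lower in Socs3-deleted livers, a difference that limma did not call (adjusted p = 0.176, 0.179 and 0.884).

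**Figure D5:**
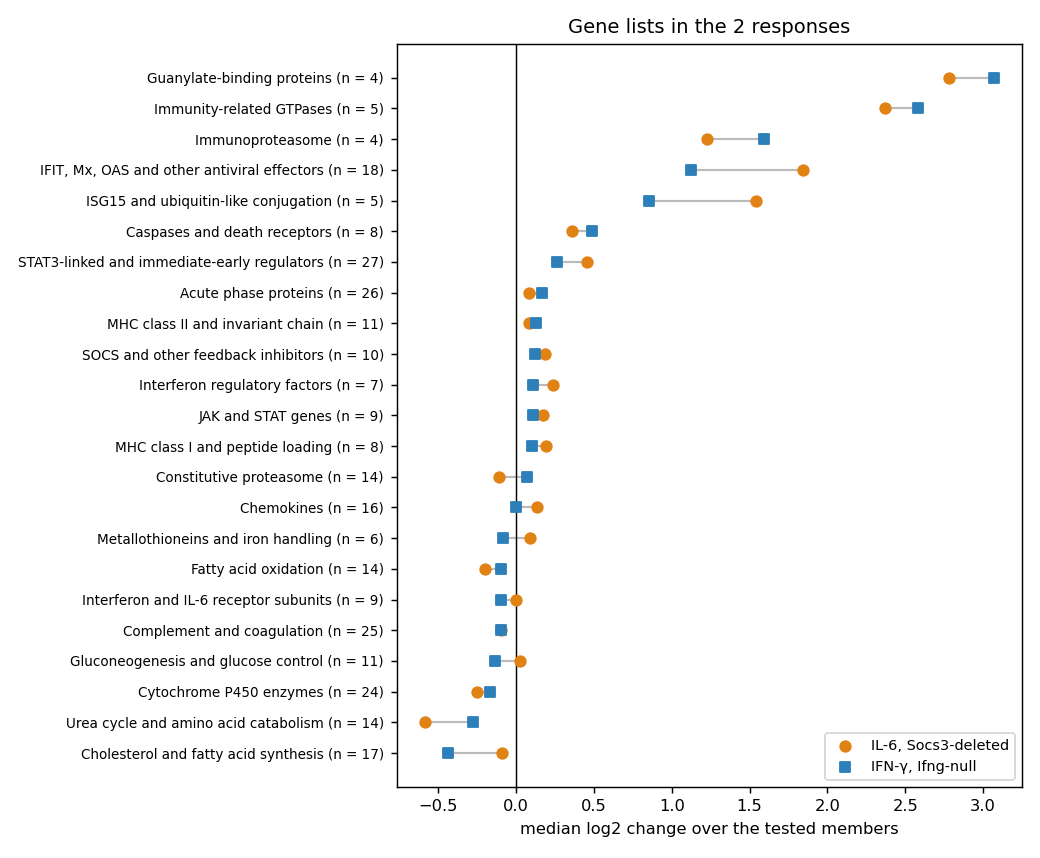
Medians of the log2 change over the tested members of 23 gene lists, after IL-6 in Socs3-deleted livers (circles) and after IFN-γ in Ifng-null livers (squares); n gives the members tested. Guanylate-binding proteins, immunity-related GTPases, antiviral effectors, the ISG15 list and the immunoproteasome stand to the right for both cytokines, from 0.86 to 3.07, while chemokines, MHC class I and II genes and interferon regulatory factors lie between -0.00 and 0.24 and the metabolic lists at or below 0.03.

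The other 4 lists of liver metabolism and secreted proteins gave no calls. Over all tested probe sets 1.17% were called after IL-6 and 0.653% after IFN-γ. At such shares a short list can easily hold no call, so the absence says little about these genes. The same holds for every other list without a call. Among 11 genes of gluconeogenesis and glucose control limma called none, with 2 and 3 at an unadjusted p under 0.05. G6pc, the last enzyme of glucose release, read 1164 and 1521 and then 533 and 187 after IL-6, and 1629.8 and 1877 and then 462 and 1017 after IFN-γ. Treated arrays were below PBS arrays in both genotypes, with changes of -2.07 and -1.35 (limma adjusted p = 0.0762 and 0.477). The 14 genes of fatty acid oxidation had 1 and 0 members at an unadjusted p under 0.05, the 24 cytochrome P450 genes 5 and 1, and the 25 complement and coagulation genes 1 and 1. Medians of these last 3 lists lay between -0.25 and -0.09.

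Of the marker lists of other cell types, none of 10 endothelial, 12 stellate cell, 6 T and NK cell, 8 B cell, 9 neutrophil, 7 erythroid, 9 pancreas and 3 cholangiocyte markers was called by limma in either response. The shares called over all tested probe sets were 1.17% and 0.653%. At an unadjusted p under 0.05 there were 1 and 1 endothelial, 1 and 0 stellate cell and 1 and 0 neutrophil markers, and 0 of the others. Hepatocyte markers summed to 66960 and 67100 after PBS and 60010 and 58610 after IL-6, and to 67110 and 65250, then 54770 and 58150, in the Ifng-null groups. Both treated groups therefore lay below their PBS group, and 13 of the 14 markers were negative after IL-6 and 14 after IFN-γ. Hpd was the only one called.

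Several named genes have a further probe set that was called in neither response. For Tap1 it gave 0.20 after IL-6 and -0.10 after IFN-γ, and for Vcl -0.06 and -0.19. For Irf7 the values were 0.63 and 0.59, for Fcgr1 0.18 and 0.47, and for Ifi204 0.03 and 0.03. For Rora they were -0.00 and -0.02, for Klf9 -0.40 and 0.00, and the other probe sets of Ankrd46 gave -0.38 and -0.24 and -0.64 and -0.59. The values of these genes therefore hold for the called probe set, not for every probe set of the gene.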

How the data were processed

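Affymetrix mouse arrays measured total RNA from liver, 12 samples in 6 groups of 2. The deposited table holds a linear intensity for each probe set on each array, and the authors' software and scaling are not given in the sources. The deposited intensities were used unscaled, floored at 33.0 and put on the log2 scale. The 66 control probe sets were left out, and the 9641 of 12422 above the floor on at least 2 arrays were tested. Of the 12422, 10833 had 1 gene symbol in the platform annotation, 396 several and 1193 none; by Entrez identifier 10817 of the first group were found in current RefSeq genes, and 0 symbols changed. Only probe sets with 1 symbol were named.

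limma 3.58.1 (R 4.3.3) was fitted with 6 group means on all 12 arrays, with 6 residual and 3.38 prior degrees of freedom. Contrasts were IL-6 minus PBS in Socs3-deleted mice, IFN-γ minus PBS in Ifng-null mice, their difference, and the difference of the PBS groups. Two-sided p-values were adjusted over all 9641 by Benjamini-Hochberg, and the code was tested on simulated data. Folds are of means of log2 values, and a fold from a group at the floor is a lower bound. The number of arrays limits the precision.

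The comparison, its members and the 33 gene lists (23 of responses, 10 of markers) were chosen with earlier results of these data known. In a list, the probe set with the highest mean stood for a gene. Named were Socs3 and Ifng, the 15 genes called in both with the largest smaller change and the 5 with the smallest difference, genes with a called difference, up to 6 per response and sign called in 1 response only, and up to 4 called members per list. Promoters are RefSeq windows on GRCm38.p6, the first listed per gene. Same-numbered replicates share only a number in the labels.

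Alternatives were array weights, a variance trend with intensity, quantile normalization, a replicate block, fitting the 8 arrays alone, other floors, other filters, a threshold of 0.10, leaving out the 2 arrays with the highest Prss2, and leaving out each array.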

Additional observations from a re-analysis of the deposited data

Results flagged for a closer look

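Of the tested probe sets, 2 had a difference between the responses that passed limma's test of the difference itself. Mx1 changed more after IL-6 in Socs3-deleted livers than after IFN-γ in Ifng-null livers, with all treated arrays above all PBS arrays in both genotypes. All 4 PBS arrays were under the floor, so the log2 difference of 2.30 (SE 0.21, limma adjusted p = 0.0128) is that of the treated levels and depends on the floor: it was 2.04 and not called with the floor at the 10th percentile (limma adjusted p = 0.0809) and 1.47 at the 50th. Over 20 alternative settings its difference ranged from 1.47 to 2.50 and was called in 14. Irf8 changed more after IFN-γ, with a difference of -1.64 (SE 0.17, limma adjusted p = 0.0148); it ranged from -1.73 to -1.48 over the 20 settings and was called in 11. Genotype and cytokine differ together in this comparison and cannot be told apart.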

How the results depend on the processing

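Of 168 results on single named genes, recomputed under up to 20 alternative settings, no called change turned its sign; 366 single values were no longer called, 11 became called, 2922 kept direction and call, and 37 turned sign without a call under either setting. The count of called differences, 2 in the report, moved to 1 with a floor at the 10th percentile, 8 at the 50th, 4 without a floor, 4 with the filter at 4 arrays, 3 with an intensity trend, 0 in a fit of the 8 arrays alone, 0 without the 2 arrays of highest Prss2 and 5 at a threshold of 0.10. Without the filter it was again 2, but these were Prkce and Actn1, and Mx1 and Irf8 were not called. Differences called as larger after IL-6, 1 in the report, numbered 0 with the floor at the 10th percentile, 5 at the 50th, 2 without a floor, 2 without the filter, 2 with the filter at 4 arrays, 2 with the trend, 0 with the 8 arrays alone, 0 without the Prss2 arrays and 3 at the threshold of 0.10. Those larger after IFN-γ, also 1, numbered 3 with the floor at the 50th percentile, 2 without a floor, 0 without the filter, 2 with the filter at 4 arrays, 0 with the 8 arrays alone, 0 without the Prss2 arrays and 2 at the threshold of 0.10.

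The IL-6 count of 113 became 28 without the filter, 20 without the Prss2 arrays and 189 at the threshold of 0.10. The IFN-γ count of 63 became 8 without the filter, 28 with array weights and 33 without the Prss2 arrays, and the count in both, 36, became 4, 17 and 10. Fewer arrays leave fewer residual degrees of freedom, and no filter adds probe sets near the floor to the adjustment. The part of these or of anything else in the changed counts was not tested. Leaving out 1 array at a time gave 0 to 17 called differences, 36 to 123 IL-6 calls, 20 to 62 IFN-γ calls, 15 to 27 in both, 0 to 15 larger after IL-6, 0 to 2 larger after IFN-γ and 0 to 7 between the PBS groups. With the replicate block the counts were 2 called differences, 123 after IL-6, 60 after IFN-γ and 33 in both, of which 29 were among the 36. Deviations of same-numbered arrays correlated with r of 0.665 between the PBS and IFN-γ groups of Ifng-null livers. Between the PBS and IL-6 groups of Socs3-deleted livers r was 0.122, and other pairs of the 4 groups gave 0.0592 to 0.256. The main fit ignored this pairing, so the SEs of the 2 responses may not be equally apt. The cause of the higher r was not tested. With 2 arrays per group, low intensity and the floor limit what can be seen of genes such as Mx1, Ccl2 and Cxcl10.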
